A study of Homo sapiens with 6 samples.

Results

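The long non-coding and antisense RNAs that carry a name of their own in the deposited table were examined here in the human lung adenocarcinoma line PC9 and in its gefitinib-resistant derivative PC9-GR. Members were all entries whose symbol starts with LINC or MIR, contains -AS or -IT before a digit, or ends in HG, leaving out symbols that start with ZNF or SLC. That gave 42 of the 1705 entries, and 1 further symbol, ZNF582-AS1, was set aside. By symbol they were 18 antisense RNAs, 18 intergenic LINC RNAs, 4 microRNA host genes and 2 microRNA symbols. Both lines carry an EGFR exon 19 deletion, a change known to sensitise lung cancer cells to gefitinib, a drug against the kinase of EGFR. The resistant line was raised in gefitinib going from 0.5 to 10 µM and held at 10 µM. It then spent 7 days without the drug before RNA was taken. PC9 served as its parental control. Each line gave 3 libraries, which the labels describe as separate cultures. PC9-GR is 1 resistant derivative, so its differences from PC9 describe that derivative.

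Long non-coding RNAs are transcripts without a recognised protein product. An antisense RNA is read from the strand opposite to a coding gene and may overlap it or start beside its promoter. A microRNA host gene is the longer transcript from which a microRNA hairpin is cut, and the mature microRNA then binds messenger RNAs through its seed, bases 2 to 8. Host RNA and mature microRNA are separate molecules, and FPKM (fragments scaled by transcript length and by the size of the library) of a host does not measure the microRNA.

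The entries for host genes and microRNAs point to 7 mature microRNAs with the RefSeq sequences below (GRCh38.p14, 5′ to 3′), shown because the seed is what each microRNA is known by. Capitals mark the seed.
miR-205-5p, of MIR205HG, chr1:209432166-209432187, plus strand: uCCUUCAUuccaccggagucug
miR-155-5p, of MIR155HG, chr21:25573983-25574006, plus strand: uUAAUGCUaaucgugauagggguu
miR-181a-5p, of MIR181A1HG, chr1:198859108-198859130, minus strand: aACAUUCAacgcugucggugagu
miR-181b-5p, of MIR181A1HG, chr1:198858925-198858947, minus strand: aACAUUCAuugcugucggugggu
miR-600, of MIR600HG, chr9:123111561-123111583, minus strand: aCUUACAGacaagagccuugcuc
miR-146a-5p, of the entry named MIR146A, chr5:160485372-160485393, plus strand: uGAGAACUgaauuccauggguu
miR-663a, of the entry named MIR663A, chr20:26208243-26208264, minus strand: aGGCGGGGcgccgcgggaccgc
The 2 microRNAs of MIR181A1HG have the same seed, which 5 of 2370 mature microRNA names in the RefSeq table carry. The other 5 seeds shown differ from it and from each other. In GENCODE 29 the identifiers of the entries named MIR146A and MIR663A belong to the host transcripts MIR3142HG and MIR663AHG. Their values are therefore those of the host entries.

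The deposited table is a selection made on these same 6 libraries. Each listed gene has an authors' log2 ratio of at least 1.00 in size and an authors' p-value of at most 0.0497, so a test on a listed gene is not independent evidence that it differs. By the authors' ratio 22 members were higher and 20 lower in PC9-GR, or 52.4% higher, against 51.1% of the whole table. Epithelial markers were not listed (0 of 6), and the table cannot show whether they changed. Of 4 mesenchymal markers 3 were listed, VIM, CDH2 and SPARC, and of 4 haematopoietic markers 3 were listed, CD68, CORO1A and ITGAM. All 6 listed markers were higher in PC9-GR, none of 3 endothelial markers was listed, and the part of these markers' differences in the results below was not tested. In bulk RNA, fewer cells that express a gene and less RNA per cell cannot be told apart.

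Members were present at low levels. Their median over genes of the mean FPKM of 6 libraries was 0.734, against 2.68 for the 1375 listed protein-coding genes and 0.847 for the 126 other listed genes of lincRNA biotype. Of the members, 10 had at least 1 FPKM in all 6 libraries and 13 stayed below 1 FPKM in all 6. MIR205HG was the most abundant member in each library, and it made up 26.2% to 29.5% of the members' summed FPKM in PC9 and 44.8% to 56.2% in PC9-GR. That sum ran from 114 to 130 FPKM in PC9 and from 173 to 206 FPKM in PC9-GR. The mean of MIR205HG alone went from 34.1 to 100.1 FPKM, so the higher members' sum in the resistant line rests largely on this 1 gene. It does not show a rise of the class. Summed over all listed genes, the PC9 libraries held 28346 to 30541 FPKM and those of the resistant line held less, 16705 to 17114.

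**Figure D1:**
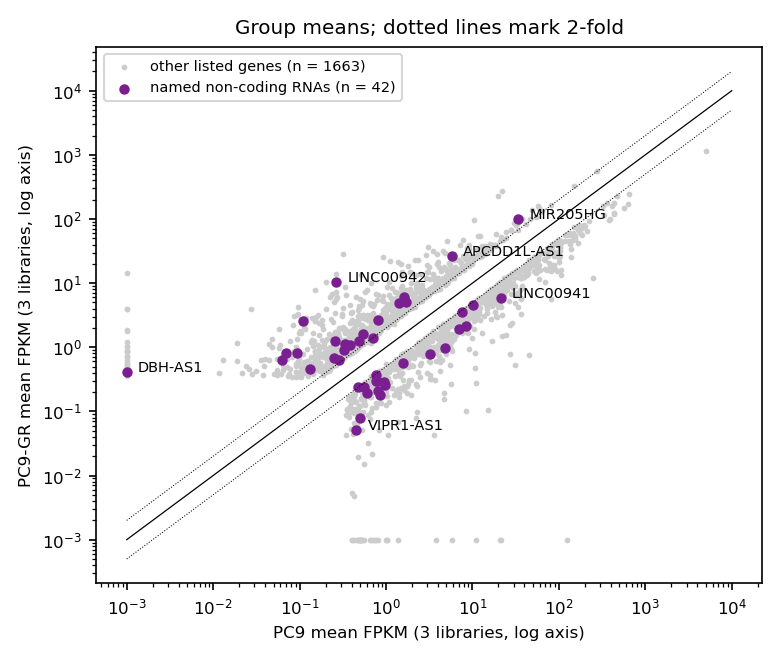
Mean FPKM in PC9-GR (vertical) against PC9 (horizontal) for the members, on log axes, with other listed genes in grey and dotted lines at 2-fold. Members lie along or beyond the dotted lines, because the table lists genes by the size of this difference, and MIR205HG is the highest member in both lines.

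A filter of 1 FPKM or more in 3 or more libraries chose the genes for the limma test on log2(FPKM + 1), and a gene was called at an adjusted p under 0.05. PC9-GR was called higher for 10 of the 18 members that passed the filter and lower for 7, and MIR663A was not called. LINC00942, LINC00601, HOXD-AS1, TPT1-AS1 and TMCC1-AS1 were below 1 FPKM in all PC9 libraries, as was MCF2L-AS1 in all PC9-GR libraries. They passed the filter only through the line in which they were higher, so their calls are not independent of the filter. Over the 1207 listed genes tested, 48.4% were called higher and 51.3% lower, 99.7% in all, so a call adds little to being listed. The median difference was 0.79 over the members tested and -0.63 over all genes tested. With the filter raised to 5 FPKM these medians were -0.96, over 8 members, and -1.03, and with no filter they were 0.36, over 42 members, and 0.29. Without the filter 19 members were called higher, 18 lower and 5 were not called, against 49.6% called higher and 47.5% lower over the whole table. By class and without the filter, 8 antisense RNAs were called higher and 10 lower, and 8 intergenic RNAs were called higher and 7 lower. The 24 members below the filter were also compared by exact permutation, two-sided. With 3 libraries a line this p cannot go below 0.1.

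Among intergenic RNAs the largest difference was that of LINC00942, on chromosome 12 (1609690-1616484 in the deposited coordinates, whose build is not named). It stood at 0.211, 0.378 and 0.205 FPKM in the PC9 libraries and at 10.3, 10.9 and 9.60 FPKM in PC9-GR. All PC9 libraries were below 1 FPKM and all PC9-GR libraries were well above it, so the groups lay far apart. The mean rose from 0.265 ± 0.0982 to 10.3 ± 0.663 FPKM (SD, n = 3 per line, as for all means below), which is 38.8-fold. On the log2(FPKM + 1) scale the difference was 3.16 (SE 0.13, limma adjusted p = 8.43e-08), and it was 4.86 with a pseudocount of 0.1.

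LINC00601, on chromosome 10 (128102437-128110448), was near 0 in PC9 as well. Its PC9 libraries were at 0.262, 0.0695 and 0.001 FPKM, the last being the lowest value the table gives, and its PC9-GR libraries were at 3.06, 2.59 and 1.93 FPKM. The difference was 1.66 on the log2(FPKM + 1) scale (SE 0.14, limma adjusted p = 3.46e-06), and it was 3.81 with a pseudocount of 0.1. In the authors' deposited table its q-value is 0.112, above 0.05.

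LINC00944 and LINC00460 were present in both lines. LINC00944, on chromosome 12 (127210815-127256957), had 1.75, 1.45 and 1.59 FPKM in PC9 and 7.28, 4.68 and 6.19 FPKM in PC9-GR. It rose 3.78-fold (difference 1.42 on the log2(FPKM + 1) scale, SE 0.16, limma adjusted p = 1.86e-05). LINC00460, on chromosome 13 (107028910-107030565), an RNA studied in several epithelial cancers, had 2.11, 1.32 and 1.75 FPKM in PC9. Its PC9-GR libraries had 5.15, 5.79 and 4.35 FPKM, all above the PC9 libraries. The rise was 2.95-fold (difference 1.17 on the log2(FPKM + 1) scale, SE 0.16, limma adjusted p = 6.19e-05), and the difference was 1.76 with equal library totals. It was 0.935 with libraries scaled by the median ratio over listed genes (median-ratio scaling).

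LINC00941 was the most abundant member that fell. This RNA, on chromosome 12 (30947976-30955645), has been studied in the differentiation of keratinocytes. It stood at 18.4, 21.7 and 23.5 FPKM in PC9 and at 6.21, 4.87 and 6.75 FPKM in PC9-GR. The fall was 3.57-fold, from 21.2 ± 2.60 to 5.94 ± 0.970 FPKM, with no overlap of the libraries (difference -1.68 on the log2(FPKM + 1) scale, SE 0.14, limma adjusted p = 2.95e-06). With equal library totals the difference was -0.95 and still called. It and LINC00942 are on the same chromosome and went in opposite directions.

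LINC00973, LINC00886 and LINC00909 fell too. LINC00973, on chromosome 3 (98621267-98737406), had 5.77, 5.75 and 9.35 FPKM in PC9 and 1.46, 1.93 and 2.40 FPKM in PC9-GR, and the means differed 3.60-fold (-1.42 on the log2(FPKM + 1) scale, SE 0.20, limma adjusted p = 7.57e-05). LINC00886, also on chromosome 3 (156465134-156534851), had 10.2, 11.0 and 9.27 FPKM in PC9 and 4.71, 5.22 and 3.97 FPKM in PC9-GR, and its means differed 2.19-fold (-0.99, SE 0.13, limma adjusted p = 5.23e-05). With the libraries scaled to equal totals over the listed genes, that of LINC00886 shrank to -0.29 and lost its call (limma adjusted p = 0.0739). That of LINC00973 was then -0.81 and that of LINC00909 -1.004, both still called. LINC00909, on chromosome 18 (72259009-72777627), varied more in PC9, with 4.30, 3.20 and 6.81 FPKM, and had 1.26, 0.961 and 0.664 FPKM in PC9-GR. Its fold was 4.96 (difference -1.52 on the log2(FPKM + 1) scale, SE 0.22, limma adjusted p = 0.000104).

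Below the filter, intergenic members were present at low levels. LINC00839 went from 0.0704 ± 0.0360 to 0.814 ± 0.0880 FPKM, and LINC00536 from 0.0634 ± 0.0583 to 0.622 ± 0.0895 FPKM. Both had an exact permutation p of 0.1, the smallest possible, as did LINC00342 and LINC01088, which were also higher in PC9-GR. LINC00899 and LINC00562 were lower, at the same exact p of 0.1. LINC-ROR, a non-coding RNA known from pluripotent cells, LINC00173, LINC00491 and LINC00937 had overlapping libraries. LINC00839 and LINC00536 were chosen for their values after these were seen.

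**Figure D2:**
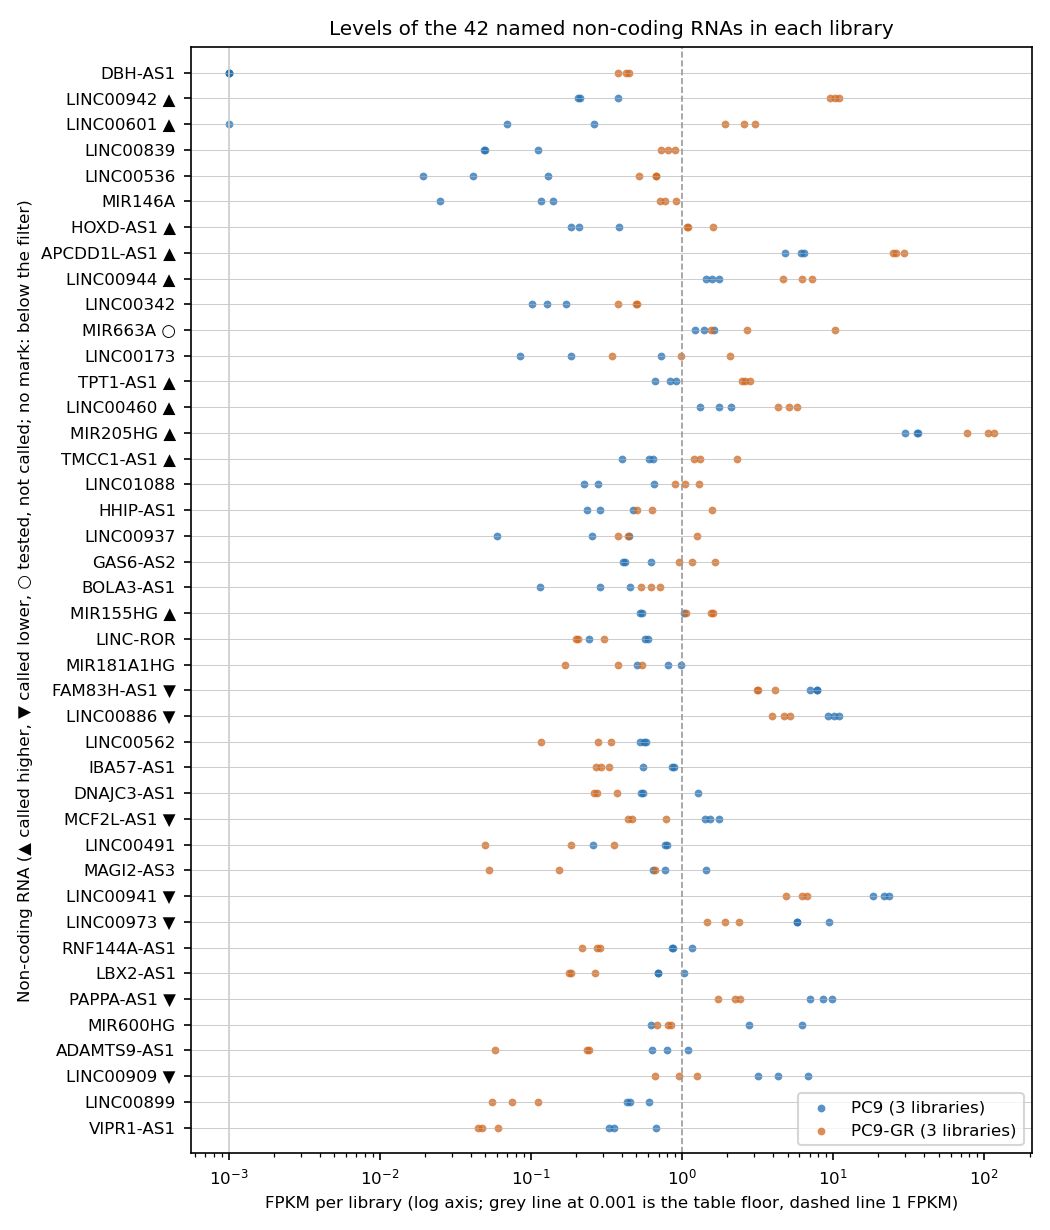
FPKM of each library for the members, on a log axis, with PC9 in blue, PC9-GR in orange and members ordered by the ratio of the lines. A triangle beside a symbol marks a call up or down, a circle a tested member without a call. The 3 libraries of a line lie close together for abundant members such as LINC00941 and spread widely for members with little RNA or overlapping lines such as MIR600HG and MIR663A.

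MIR205HG, the host of miR-205, a microRNA of stratified and other epithelia known to target ZEB1 and ZEB2, was 2.94-fold higher in PC9-GR. It lies on chromosome 1 (209602164-209606183). Its libraries were at 35.9, 29.9 and 36.5 FPKM in PC9 and at 77.4, 116 and 107 FPKM in PC9-GR. The lowest PC9-GR library was above the highest PC9 library, and the mean rose from 34.1 ± 3.68 to 100.1 ± 20.1 FPKM (difference 1.51 on the log2(FPKM + 1) scale, SE 0.15, limma adjusted p = 9.21e-06). The difference was 2.30 with equal library totals and 1.21 with median-ratio scaling. ZEB1 and ZEB2, transcription factors that repress epithelial genes, rose in the same libraries. ZEB1 went from 0.907 ± 0.128 to 5.49 ± 0.633 FPKM (limma adjusted p = 1.70e-06) and ZEB2 from 0.321 ± 0.217 to 4.07 ± 0.746 FPKM (limma adjusted p = 2.57e-06). ZEB2 was below 1 FPKM in all PC9 libraries. It passed the filter only through PC9-GR, so its call is not independent of the filter. Of a list of 25 genes of epithelial and mesenchymal state and their microRNA hosts, 5 were in the table. These were MIR205HG, MIR155HG, VIM, ZEB1 and ZEB2, and all 5 were called higher, where 48.4% of all tested genes were called higher and 99.7% were called in 1 direction or the other. The genes of this list outside the table may also have changed.

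MIR155HG, the host of miR-155, which is induced in activated immune cells, lies on chromosome 21 (26934220-26947480). It had 1.03, 0.541 and 0.528 FPKM in PC9 and 1.60, 1.07 and 1.57 FPKM in PC9-GR. The highest PC9 library and the lowest PC9-GR library nearly met, and the mean rose 2.02-fold (difference 0.51 on the log2(FPKM + 1) scale, SE 0.15, limma adjusted p = 0.00678, range over alternatives 0.000224 to 0.0389). The difference was 0.92 with equal library totals and 0.95 with a pseudocount of 0.1. With median-ratio scaling it was 0.36 (limma adjusted p = 0.0389). In the authors' deposited table its q-value is 0.104.

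The MIR146A entry, on chromosome 5 (159895274-159914433), is named for a microRNA that NF-kB induces and that dampens TRAF6 and IRAK1. It had 0.117, 0.0252 and 0.141 FPKM in PC9 and 0.717, 0.918 and 0.773 FPKM in PC9-GR, with means 8.53-fold apart and no overlap. It was below the filter (exact permutation p = 0.1) and was called higher without it (limma adjusted p = 9.78e-05). In the authors' deposited table its q-value is 0.0786, above 0.05.

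The other 3 entries of this class had lines that overlapped. MIR663A, on chromosome 20 (26167555-26232162), had 1.40, 1.63 and 1.22 FPKM in PC9 and 2.71, 1.56 and 10.4 FPKM in PC9-GR. The third PC9-GR library set its mean of 4.88 ± 4.79 FPKM, against 1.42 ± 0.207 FPKM in PC9 (difference 0.98 on the log2(FPKM + 1) scale, limma adjusted p = 0.0528). Without that library the difference was 0.35 (limma adjusted p = 0.0951). Without PC9-GR replicate 1 or 2 it was called, at limma adjusted p = 0.0463 and 0.00944. MIR600HG had 6.25, 0.621 and 2.77 FPKM in PC9 and 0.807, 0.851 and 0.681 FPKM in PC9-GR, with the second PC9 library below all 3 PC9-GR libraries (exact permutation p = 0.4). MIR181A1HG had 0.501, 0.988 and 0.811 FPKM in PC9 and 0.167, 0.377 and 0.546 FPKM in PC9-GR (exact permutation p = 0.2). Without the filter MIR181A1HG was called lower (limma adjusted p = 0.0343) and MIR600HG was not called (limma adjusted p = 0.0699). The authors' deposited q-values were 0.000285 for MIR663A, 0.0601 for MIR600HG and 0.0986 for MIR181A1HG.

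**Figure D3:**
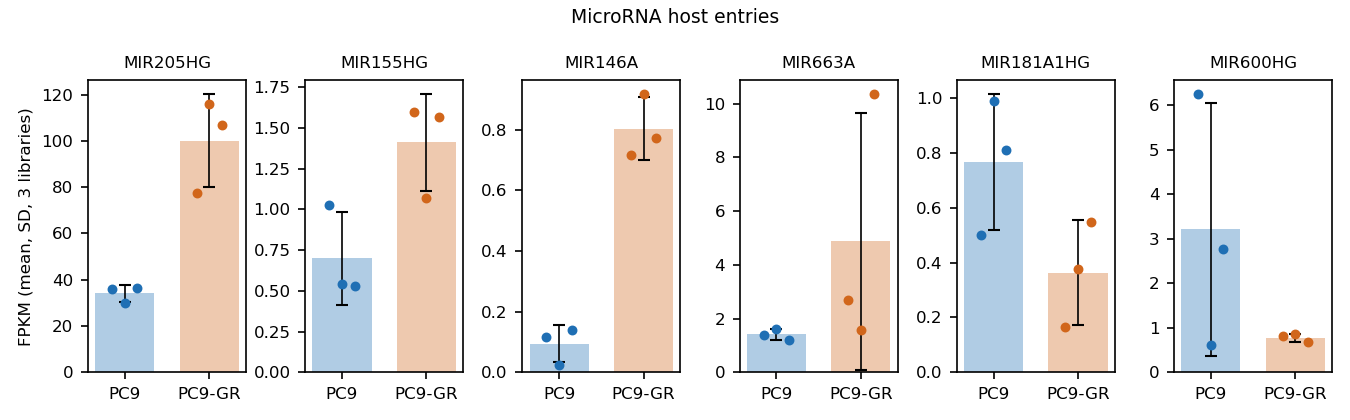
FPKM in each of the 6 libraries for the 4 microRNA host genes and the 2 entries with microRNA symbols, 1 panel per gene with its own linear axis from 0, bars for the mean and error bars for the SD. MIR205HG, MIR155HG and MIR146A separate the lines, while MIR663A has 1 PC9-GR library at 10.4 FPKM.

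Sense partners of 5 antisense RNAs were listed, and each of the 5 pairs differed in the same direction. Of all listed genes with another listed gene within 100000 bp, 83.4% had the direction of the nearest one. For the other 13 antisense RNAs the gene they are named after is not in the table, which does not show that it stayed the same. PAPPA-AS1 and PAPPA, which encodes a protease that cleaves IGF-binding proteins, share 1 locus on chromosome 9 (118916082-119164601 for the antisense entry). PAPPA-AS1 had 8.56, 7.03 and 9.90 FPKM in PC9 and 2.26, 1.73 and 2.40 FPKM in PC9-GR, a 3.99-fold fall (difference -1.60 on the log2(FPKM + 1) scale, SE 0.16, limma adjusted p = 7.51e-06). With equal library totals the difference was -0.97 and still called. PAPPA had 4.97, 4.27 and 5.83 FPKM in PC9 and 1.44, 1.15 and 1.24 FPKM in PC9-GR, a 3.94-fold fall (limma adjusted p = 9.45e-06). The antisense RNA was the more abundant of the pair in all 6 libraries. Its FPKM ratio to PAPPA was 1.69 ± 0.0378 in PC9 and 1.67 ± 0.239 in PC9-GR, with overlapping libraries.

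VIPR1-AS1 and VIPR1, a receptor for vasoactive intestinal peptide, share a locus on chromosome 3 (42530790-42579059). VIPR1-AS1 had 0.674, 0.357 and 0.331 FPKM in PC9 and 0.0472, 0.0447 and 0.0604 FPKM in PC9-GR, and its means differed 8.94-fold (exact permutation p = 0.1). VIPR1 had 3.66, 3.34 and 2.57 FPKM in PC9 and 0.366, 0.437 and 0.306 FPKM in PC9-GR, an 8.64-fold fall (limma adjusted p = 2.37e-06). VIPR1 passed the filter only through PC9, so its call is not independent of the filter. The ratio of antisense to sense FPKM was 0.140 ± 0.0399 in PC9 and 0.143 ± 0.0491 in PC9-GR and overlapped.

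ADAMTS9-AS1 and ADAMTS9, a secreted metalloprotease of the matrix, share a locus on chromosome 3 (64501332-64997143). ADAMTS9-AS1 had 0.632, 0.798 and 1.10 FPKM in PC9 and 0.244, 0.0576 and 0.236 FPKM in PC9-GR, and its means differed 4.71-fold (exact permutation p = 0.1). ADAMTS9 had 4.79, 3.87 and 5.91 FPKM in PC9 and 1.34, 1.07 and 1.32 FPKM in PC9-GR, a 3.91-fold fall (limma adjusted p = 1.96e-05). Their ratio was 0.175 ± 0.0386 in PC9 and 0.138 ± 0.0732 in PC9-GR and overlapped.

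In GENCODE 29 these 3 antisense genes lie on the strand opposite to their partners and overlap them. The library kit keeps strand, but the strand setting of the authors' counting is not given in the sources used here, and the table gives both genes of a pair the same locus. Whether reads of the sense gene entered the antisense value cannot be told from the table.

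APCDD1L-AS1 and IBA57-AS1 are different in layout, since they start beside their partners and do not overlap them. GENCODE 29 places the start of APCDD1L-AS1 248 bp from that of APCDD1L and the start of IBA57-AS1 303 bp from that of IBA57, on opposite strands, and names both RNAs as divergent transcripts. APCDD1L-AS1, on chromosome 20 (57090434-57194944), had 4.79, 6.11 and 6.47 FPKM in PC9 and 29.5, 24.9 and 26.1 FPKM in PC9-GR. It rose 4.63-fold (difference 2.04 on the log2(FPKM + 1) scale, SE 0.13, limma adjusted p = 6.39e-07). APCDD1L had 1.47, 1.81 and 1.21 FPKM in PC9 and 12.5, 14.3 and 11.6 FPKM in PC9-GR, an 8.54-fold rise (limma adjusted p = 4.09e-07). The ratio of antisense to sense FPKM was 3.99 ± 1.17 in PC9 and 2.12 ± 0.330 in PC9-GR. This was the only one of the 5 pairs whose ratio did not overlap between the lines.

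IBA57-AS1, on chromosome 1 (228351786-228353213), had 0.886, 0.859 and 0.549 FPKM in PC9 and 0.292, 0.331 and 0.270 FPKM in PC9-GR, and its means differed 2.57-fold (exact permutation p = 0.1). IBA57, which acts in mitochondrial iron-sulphur cluster assembly, had 3.18, 3.05 and 3.24 FPKM in PC9 and 1.51, 1.76 and 1.30 FPKM in PC9-GR, a 2.07-fold fall (limma adjusted p = 0.000352). Their ratio was 0.243 ± 0.0638 in PC9 and 0.196 ± 0.00999 in PC9-GR and overlapped. The table gives IBA57-AS1 the biotype protein_coding.

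Whether an antisense RNA and its partner differed by the same amount was tested on the difference of their log2(FPKM + 1) values. The antisense change minus the sense change was 1.15 for VIPR1, 0.73 for ADAMTS9, 0.29 for IBA57, -0.20 for PAPPA and -0.43 for APCDD1L. In each pair the libraries did not overlap and the two-sided exact permutation p was 0.1, also after Benjamini-Hochberg adjustment over the 5 pairs, which no design of 3 against 3 can bring lower. Without PC9 replicate 3 the value was 0.18 for IBA57 and -0.27 for APCDD1L. With equal library totals it was 0.41 for ADAMTS9 and -0.12 for PAPPA, and it reversed to -0.00656 for IBA57. Adding 1 FPKM shrinks the change of the lower gene of a pair, and without it, a setting added after the data were seen, the value was 0.01 for VIPR1, -0.51 for ADAMTS9, -0.27 for IBA57, -0.02 for PAPPA and -0.89 for APCDD1L. In the APCDD1L pair the libraries did not overlap on this scale either (exact permutation p = 0.1). With equal library totals and 1 FPKM added they overlapped (exact permutation p = 0.2).

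**Figure D4:**
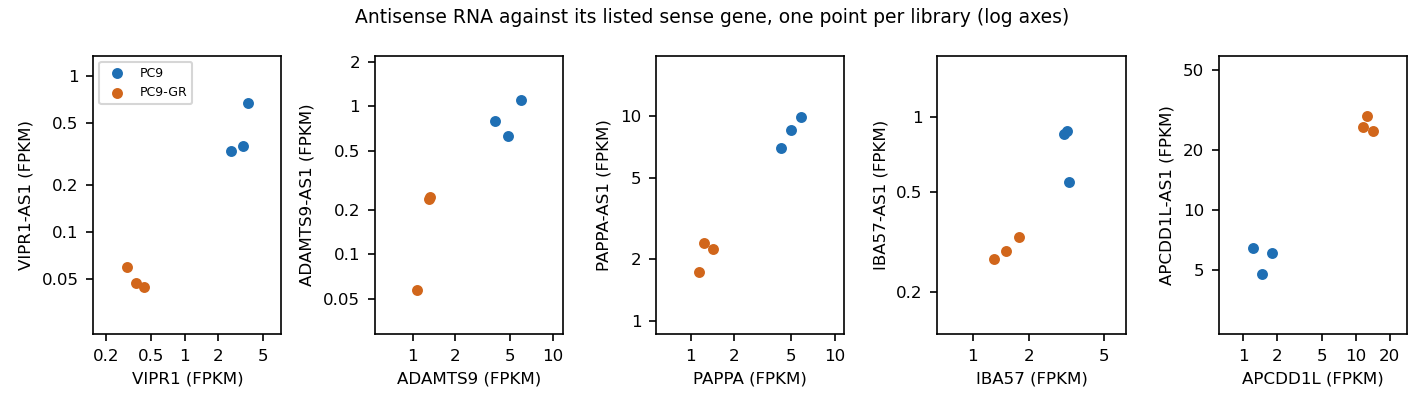
FPKM of the antisense RNA (vertical) against its listed sense gene (horizontal), 1 panel per pair and 1 point per library, on log axes. In 4 pairs the PC9-GR libraries lie lower on both axes than the PC9 libraries, and in the APCDD1L pair they lie higher on both.

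Some members without -AS in the symbol have the same layout. LINC00909 starts 638 bp from ZNF407, a zinc finger gene on the opposite strand that it overlaps, and the 2 entries share a locus in the table. This pair was added after the data were seen. ZNF407 had 3.33, 3.19 and 3.58 FPKM in PC9 and 1.55, 0.982 and 1.29 FPKM in PC9-GR, a 2.64-fold fall (limma adjusted p = 9.49e-05). The FPKM ratio of LINC00909 to ZNF407 was 1.40 ± 0.458 in PC9 and 0.769 ± 0.236 in PC9-GR. The lines did not overlap but nearly met, at 1.003 in PC9 replicate 2 and 0.978 in PC9-GR replicate 2. The difference of the 2 changes was -0.57 on the log2(FPKM + 1) scale (exact permutation p = 0.1). Without PC9 replicate 3 that difference was -0.36 and without the pseudocount it was -0.86. In GENCODE 29, 13 members overlap a coding gene on the opposite strand, and for 4 of them that gene is listed. Likewise 13 members start within 1000 bp of a coding gene on the opposite strand, and for 3 of them it is listed.

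DBH-AS1, on chromosome 9 (136501481-136524466), was at the floor of the table, 0.001 FPKM, in all 3 PC9 libraries. In PC9-GR it had 0.375, 0.445 and 0.424 FPKM, so no fold is given (exact permutation p = 0.1, and limma adjusted p = 9.78e-05 without the filter). The gene it is named for, which makes noradrenaline from dopamine, is not listed. The nearest listed gene, 4215 bp away, was SARDH, the mitochondrial sarcosine dehydrogenase. SARDH had 0.0834, 0.0421 and 0.129 FPKM in PC9 and 1.98, 2.53 and 2.10 FPKM in PC9-GR, a 26.0-fold rise (limma adjusted p = 8.25e-07). SARDH passed the filter only through PC9-GR, so its call is not independent of the filter.

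FAM83H-AS1 was the other antisense RNA, beside PAPPA-AS1, among the 6 members called lower by limma with the largest differences on the log2(FPKM + 1) scale. On chromosome 8 (144816309-144828507), it had 7.08, 7.86 and 7.83 FPKM in PC9 and 4.13, 3.15 and 3.20 FPKM in PC9-GR, a 2.17-fold fall (difference -0.94 on the log2(FPKM + 1) scale, SE 0.14, limma adjusted p = 8.62e-05). With equal library totals the difference was -0.27 and was not called (limma adjusted p = 0.0906). GENCODE 29 gives this identifier the name IQANK1 and the type protein coding.

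Of the antisense RNAs outside these groups, TPT1-AS1, HOXD-AS1 and TMCC1-AS1 rose and MCF2L-AS1 fell by limma. BOLA3-AS1, GAS6-AS2 and HHIP-AS1 were higher, and DNAJC3-AS1, LBX2-AS1 and RNF144A-AS1 lower, with no overlap, at an exact permutation p of 0.1 and below the filter. MAGI2-AS3 was lower with overlapping libraries.

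Neighbouring genes were compared by direction. For 12 members the nearest other listed gene was within 100000 bp, and for 11 of these it had the same direction (91.7%), against 598 of 717 listed genes with so near a neighbour (83.4%). The exception was TPT1-AS1, which rose beside a lower SNORA31. For ADAMTS9-AS1, LBX2-AS1, LINC00909, PAPPA-AS1 and VIPR1-AS1 the nearest listed gene has the same deposited locus. Whether reads of one gene entered the value of the other cannot be told there. At any distance 27 of 42 members had the direction of their nearest listed gene (64.3%), against 67.5% in the table. Of 5 members on chromosome 3, 4 were lower, and both members on chromosome 18, LINC-ROR and LINC00909, were lower, where 64.8% and 90.7% of the listed genes were lower. On chromosome 12 1 of 5 members was lower, against 51.8% of the listed genes, and on chromosome 13 3 of 6, against 57.6%. Both members on chromosome 10 were higher, and 19.6% of the listed genes there were lower.

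Members' libraries separated less often than those of other listed genes. The lines did not overlap for 34 members (81.0%), against 94.8% of the table. PC9-GR was the higher line for 19 of these members and the lower for 15, against 48.3% and 46.6% of the table. Among genes with a mean under 1 FPKM the share was 75% for 24 members and 91.3% for 539 others, and at 1 FPKM or more it was 88.9% for 18 members and 97.1% for 1124 others. The difference between these shares is given as a description without a test. The median coefficient of variation of members was 29.8% in PC9 and 20.6% in PC9-GR, against 17.6% and 17.4% in the table. For the 126 other listed genes of lincRNA biotype it was 26.9% and 27.1%, so a high spread is not particular to the members. The authors' deposited table gives a q-value under 0.05 to 31 members, or 73.8%, against 88.4% of all listed genes and 77.8% of those other lincRNA genes.

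RefSeq promoter windows of 300 bases, 250 before and 50 after the start, were found for 21 of 42 members. Those of 4 members that rose are printed because LINC00942 had the largest ratio, MIR205HG was the most abundant, and LINC00460 and MIR155HG hold an AP-1 motif (GRCh38.p14, 5′ to 3′, on the strand of the gene). Capitals mark searched motifs.
LINC00942, chr12:1500241-1500540, plus strand: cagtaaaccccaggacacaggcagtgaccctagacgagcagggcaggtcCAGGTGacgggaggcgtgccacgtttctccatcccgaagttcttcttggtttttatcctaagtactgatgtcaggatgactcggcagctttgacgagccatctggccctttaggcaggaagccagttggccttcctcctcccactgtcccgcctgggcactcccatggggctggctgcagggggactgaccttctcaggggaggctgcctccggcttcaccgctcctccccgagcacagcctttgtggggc
MIR205HG, chr1:209428570-209428869, plus strand: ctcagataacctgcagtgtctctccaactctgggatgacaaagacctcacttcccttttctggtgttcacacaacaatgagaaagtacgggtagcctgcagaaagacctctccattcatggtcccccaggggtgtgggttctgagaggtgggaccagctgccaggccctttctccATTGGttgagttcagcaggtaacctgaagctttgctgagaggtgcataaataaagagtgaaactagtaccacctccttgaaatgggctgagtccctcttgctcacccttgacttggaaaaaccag
LINC00460, chr13:106376314-106376613, plus strand: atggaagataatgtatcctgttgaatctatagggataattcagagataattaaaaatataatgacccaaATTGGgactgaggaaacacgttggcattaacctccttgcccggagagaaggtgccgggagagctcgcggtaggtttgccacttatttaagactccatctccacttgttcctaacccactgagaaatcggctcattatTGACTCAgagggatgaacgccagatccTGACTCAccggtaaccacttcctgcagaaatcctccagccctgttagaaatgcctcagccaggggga
MIR155HG, chr21:25561895-25562194, plus strand: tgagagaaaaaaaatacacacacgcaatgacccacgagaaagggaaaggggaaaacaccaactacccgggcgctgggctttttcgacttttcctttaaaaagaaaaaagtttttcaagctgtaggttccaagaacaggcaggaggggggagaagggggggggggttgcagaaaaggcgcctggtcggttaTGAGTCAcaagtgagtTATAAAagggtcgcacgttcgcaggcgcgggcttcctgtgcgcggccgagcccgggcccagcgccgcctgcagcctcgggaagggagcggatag
Counting from base 1 of the window, LINC00460 has AP-1 motifs at 207 and 234 and a CCAAT box on the other strand at 70. MIR155HG has an AP-1 motif on the other strand at 191 and a TATA box at 207. MIR205HG has a CCAAT box on the other strand at 176, and LINC00942 has a ZEB-type E-box at 50.

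The motifs were TGACTCA for AP-1, CAGGTG for the ZEB-type E-box, GGAATG for TEAD, GGGCGG for the GC box, CCAAT and TATAAA, each searched on both strands, with overlapping matches kept. AP-1 was in the windows of 4 of the 21 members (19%), which were LINC00460, LINC00601, MIR155HG and MIR181A1HG, against 4.92% of all 27305 windows and 5.44% of those of 975 other listed genes. The first 3 of these were called higher, and MIR181A1HG was lower in PC9-GR with overlapping libraries. Of all tested genes 48.4% were called higher and 99.7% in either direction, so these calls do not tie the motif to a direction. GC boxes were in 38.1% of the members' windows, against 44.6% of all windows and 62.4% of those of other listed genes. The E-box was in 23.8%, against 20.6% of all windows and 19.4% of those of other listed genes, and TEAD in 19%, against 14% and 12.7%. CCAAT was in 33.3%, against 35.7% and 32.6%, and TATAAA in 14.3%, against 12% and 8.21%. A match is a run of letters and does not show that a factor binds there.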

How the data were processed

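RNA of PC9 and PC9-GR was measured in 3 libraries each. Per the labels' protocols, Trizol was used for total RNA and a stranded Agilent SureSelect kit for the libraries. The submitters' processing notes name TopHat and Cufflinks. Versions, build, strand setting and annotation were not given in the sources. Per the file headers, the deposited values are FPKM for each library (lowest entry 0.001) and for each line. A ratio between the lines, that ratio as log2, a p-value and a q-value, all computed by the authors, stand beside them. With no read counts used here, the depth behind an FPKM is unknown, and intervals from counting were not formed.

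Deposited FPKM was tested as log2(FPKM + 1), which understates the change of low genes, in limma 3.58.1 (R 4.3.3) by its moderated test, two-sided, with a trend in the variance and no term but the line. Adjustment was by Benjamini-Hochberg over the 1207 genes that had 1 FPKM or more in 3 or more of 6 libraries. Folds are ratios of mean FPKM, higher over lower. Members below the filter, and antisense and sense pairs, were compared by exact permutation tests (scipy 1.17.1). The limma step was tested on simulated data. Members were matched by gene identifier to GENCODE 29 (42 of 42 found, 8 under another name), and microRNA and promoter sequences came from RefSeq GRCh38.p14.

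Named with values were antisense RNAs with a listed sense partner, the 6 called members per direction with the largest difference, members at the floor in a whole line, microRNA entries, and members whose call changed under an alternative. Members, gene lists and tests were chosen with earlier results of these data known. Alternatives were another pseudocount, other filters, 2 scalings, no variance trend, a replicate block and leaving out each library.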

Additional observations from a re-analysis of the deposited data

How the results depend on the processing

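With no filter 19 members were called higher and 18 lower, with a filter at 0.5 FPKM 17 and 16, and with a filter at 5 FPKM 3 and 5, because the filter sets how many members are tested (42, 35 and 8, against 18). Over all genes tested the counts were 846 and 810 of 1705 with no filter. They were 723 and 707 of 1443 at 0.5 FPKM, and 234 and 393 of 629 at 5 FPKM. With equal library totals 11 members were called higher and 5 lower, against 10 and 7 as reported, and the median over all genes tested moved from -0.63 to -0.16. Over all 1207 genes tested 586 were then called higher and 433 lower, against 584 and 619 as reported. FAM83H-AS1 and LINC00886 lost their calls there. With median-ratio scaling 10 members were called higher and 7 lower, against 576 and 619 of all genes tested. The median difference of the members tested was then 0.64, against 0.79 as reported. Leaving out 1 library at a time gave 10 to 11 members called higher and 7 lower, against 578 to 581 and 614 to 618 of all genes tested. The filter stayed on all 6 libraries there, so the same 18 members were tested each time. The library left out still helped to choose them, and part of this stability is built in. The antisense minus sense change of IBA57-AS1 reversed to -0.0856 with a pseudocount of 0.1 (exact permutation p = 0.8), to -0.27 with none (p = 0.4, exact) and to -0.00656 with equal totals (p = 0.9, exact). That of ADAMTS9-AS1 reversed to -0.51 without a pseudocount, a setting added after the data were seen (exact permutation p = 0.5). Leaving out 1 library at a time reversed none of the 5 pairs. The pseudocount's share in these differences follows from its construction. Equal totals scale both genes of a pair by the same factor in a library. They therefore move a pair's value only through the added 1 FPKM. MIR663A was called with a pseudocount of 0.1 (limma adjusted p = 0.0494), with equal totals (0.00966) and with a replicate block (0.0375), and MIR600HG with the filter at 0.5 FPKM (0.0483). MIR181A1HG was called lower with that filter (limma adjusted p = 0.0229) and with none (0.0343). Deviations of same-numbered libraries from their line means correlated at -0.098, 0.082 and 0.164 over 1207 genes. Those of differently numbered libraries correlated at -0.287 to 0.198. Same-numbered libraries did not stand out, but deviations from means of 3 libraries are tied to each other, so this does not settle whether libraries were paired. With the replicate block 11 members were called higher and 7 lower, against 586 and 619 of all genes tested, and the smallest p a pair could reach by sign flips was 0.25. Members below the filter have exact tests that cannot pass 0.05 at this size, so their p-values say nothing on stability. The table lists genes chosen on these libraries, so these settings do not bear on whether an unlisted RNA changed, and depth is unknown.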

Other observations

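Of 37 long non-coding RNAs outside the symbol rule that were looked for, 4 were in the table, and limma called all 4 higher in PC9-GR. Of all tested genes 48.4% were called higher and 99.7% were called in either direction, so a call adds little to being listed. H19, an imprinted RNA of fetal tissue, rose 15.8-fold, from 1.38 ± 0.600 to 21.7 ± 3.57 FPKM (difference 3.27 on the log2(FPKM + 1) scale, limma adjusted p = 4.77e-07). LUCAT1 rose 2.11-fold from 8.76 ± 1.59 FPKM (limma adjusted p = 0.000188), CRNDE 3.36-fold from 1.99 ± 0.663 FPKM (limma adjusted p = 0.00092), and CASC2 1.97-fold from 0.690 ± 0.0948 FPKM (limma adjusted p = 0.000882). CASC2 passed the filter only through PC9-GR, so its call is not independent of the filter. The other RNAs looked for were not listed, which does not show that they stayed the same.

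The locus deposited for 8 members is over 10 times as long as their gene in GENCODE 29. LINC00909 is an example, with 518619 bp against 6735 bp, as is PAPPA-AS1, with 248520 bp against 2450 bp. Both share their deposited locus with a listed coding gene.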
